A study of Mus musculus with 6 samples.

Results

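The genes described here encode proteins that the liver and the yolk sac secrete into the blood of the embryo. They are 10 of the 24402 loci in a table of 12.5 *dpc* mouse lungs, namely *Afp*, *Alb*, *Ttr*, *Rbp4*, *Trf*, *Apoa1*, *Apoa2*, *Apob*, *Apom* and *Fgb*. Each symbol was found at exactly 1 locus, and no member shared its locus with another symbol. The group was chosen by its values in these data, because *Ttr*, *Afp* and *Apoa1* were higher in *Yap* mutant lungs, so the differences between the genotypes are given as a description and not as a test.

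The study prepared RNA from whole lungs of C57BL/6 embryos. There were 3 libraries from wild-type (control) embryos, and 3 from littermates carrying 2 floxed *Yap* alleles and 1 Cre allele at *Shh* (*Yap-flox/flox; Shh-Cre/+*, called *Yap* mutants). Cre made from the *Shh* locus deletes *Yap* in the lung epithelium and leaves it in the mesenchyme, and the mutants also carry only 1 intact *Shh* allele, whereas the controls are wild type. The mutant allele of *Yap* was therefore not compared with a control that carries Cre. For each locus the authors' table holds 1 value per genotype, read as FPKM (fragments counted per length of transcript and per sequencing depth), which sets genes of different length on the same scale. Values of single libraries, their spread and their depth are therefore unknown, and no difference below has a replicate check. In RNA of a whole organ, more or fewer cells of a type cannot be told apart from more or less RNA per cell. The sources do not say whether a library came from 1 embryo or from several.

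The secreted proteins of this group carry hormones, vitamins, iron and lipids through plasma, or take part in its clotting. Alpha-fetoprotein and albumin are related carriers, and the former is the major plasma protein of the embryo. Transthyretin carries thyroid hormone and holds the retinol-binding protein in the circulation, transferrin carries iron, the apolipoproteins build lipoprotein particles, and fibrinogen forms the clot. In the liver and in the visceral endoderm of the yolk sac, such genes are driven by promoters that bind liver-enriched factors of the HNF1, HNF4, FOXA and C/EBP families. Several of them are also transcribed elsewhere, *Ttr* in the choroid plexus for example.

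The promoters of 4 members are shown because they form 2 pairs of related genes whose values differ, with *Afp* beside *Alb* and *Apoa1* beside *Apoa2*. They are the 250 bases before the start of transcription in RefSeq (GRCm38.p6), all on the plus strand, read 5′ to 3′, with *Afp* at chr5:90490464-90490713, *Alb* at chr5:90460620-90460869, *Apoa1* at chr9:46228380-46228629 and *Apoa2* at chr1:171224804-171225053. Capitals mark matches, on either strand, to a TATA box (TATAAA), an HNF1 motif arm (GTTAAT), a FOXA core (TGTTTAC or TGTTTGC), a C/EBP motif (TTGCNNAA) or an HNF4 motif arm (CAAAGT).
Afp: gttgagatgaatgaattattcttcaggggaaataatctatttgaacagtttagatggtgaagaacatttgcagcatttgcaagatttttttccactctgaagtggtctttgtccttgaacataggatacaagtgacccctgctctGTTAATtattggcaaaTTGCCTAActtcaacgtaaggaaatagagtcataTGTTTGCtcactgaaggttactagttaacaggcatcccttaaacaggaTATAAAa
Alb: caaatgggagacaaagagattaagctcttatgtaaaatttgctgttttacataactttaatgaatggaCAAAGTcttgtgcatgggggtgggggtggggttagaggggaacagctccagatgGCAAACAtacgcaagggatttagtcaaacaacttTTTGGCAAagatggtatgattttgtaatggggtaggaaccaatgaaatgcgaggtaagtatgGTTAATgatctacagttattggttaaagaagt
Apoa1: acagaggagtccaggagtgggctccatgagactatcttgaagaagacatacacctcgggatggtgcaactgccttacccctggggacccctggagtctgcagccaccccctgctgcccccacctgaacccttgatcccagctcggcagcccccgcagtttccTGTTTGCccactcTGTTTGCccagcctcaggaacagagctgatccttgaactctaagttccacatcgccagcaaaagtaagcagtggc
Apoa2: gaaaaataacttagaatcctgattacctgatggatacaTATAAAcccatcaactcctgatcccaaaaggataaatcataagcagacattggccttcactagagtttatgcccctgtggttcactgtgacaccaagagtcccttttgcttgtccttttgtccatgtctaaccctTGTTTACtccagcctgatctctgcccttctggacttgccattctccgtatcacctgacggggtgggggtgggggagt

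*Afp* and *Alb* each held 1 match to the HNF1 motif arm, the FOXA core and the C/EBP motif. In *Afp* the HNF1 motif arm began 105 bases before the RefSeq start and the TATA box 7 bases before it, while the GENCODE gene begins 23 bases further downstream. In *Alb* the HNF1 motif arm began 32 bases before the RefSeq start, and the window also held the HNF4 motif arm. The *Alb* start is 90460870 in RefSeq and 90460897 in GENCODE. *Apoa1* had 2 FOXA cores, beginning 88 and 75 bases before the RefSeq start, and *Apoa2* had 1, beginning 77 bases before its own. The *Apoa1* start is 46228630 in RefSeq and 46228580 in GENCODE, so the last bases printed lie within the GENCODE gene. RefSeq promoters were used for 8 members, and for *Trf* and *Ttr* none was read. Of these 8, the FOXA core was found in 6, the C/EBP motif in 4, the HNF1 motif arm in 3, the TATA box in 3 and the HNF4 motif arm in 1. Among all 32851 promoters in the RefSeq table the shares with a match were 7.29% for the FOXA core, 9.56% for the C/EBP motif, 6.43% for the HNF1 motif arm, 12.4% for the TATA box and 12.6% for the HNF4 motif arm. Matches were found both in members that were higher in the mutants and in members that were not, and a match is a string of letters, not a bound site.

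To compare the genotypes, a log2 ratio of *Yap* mutant over control was computed after adding 0.1 FPKM to each value. A locus was counted as higher or lower when it differed at least 2-fold by this ratio and its mean over both genotypes reached 1 FPKM. The fold printed for a single member is the quotient of its listed values, without that addition. Of the 12716 loci that met this mean, 274 (2.15%) were higher and 163 (1.28%) were lower in *Yap* mutant lungs, and their median log2 ratio was -0.01. Among the members, 6 met the mean, of which 4 were higher, 0 were lower, and the median log2 ratio was 1.70. The members were chosen on this contrast, so nothing is read from the difference between these shares. *Ttr* met the mean only through its mutant value. The remaining 4 members, *Apoa2*, *Apob*, *Apom* and *Fgb*, were listed under 1 FPKM in both genotypes.

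Together the members made up 18.04 FPKM in the wild type and 67.9 FPKM in the mutants, 3.76 times as much. *Afp*, *Trf* and *Ttr* held 60.1% of this sum in controls and 81.0% in the mutants. *Afp*, *Trf*, *Ttr*, *Rbp4* and *Apoa1* were listed higher in the mutants, where each exceeded 1.28 FPKM. The other 5 genes were at or below 1.28 FPKM in both genotypes. Of those, *Fgb* and *Apom* were also listed higher in the mutants, and *Alb*, *Apoa2* and *Apob* were listed lower.

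**Figure D1:**
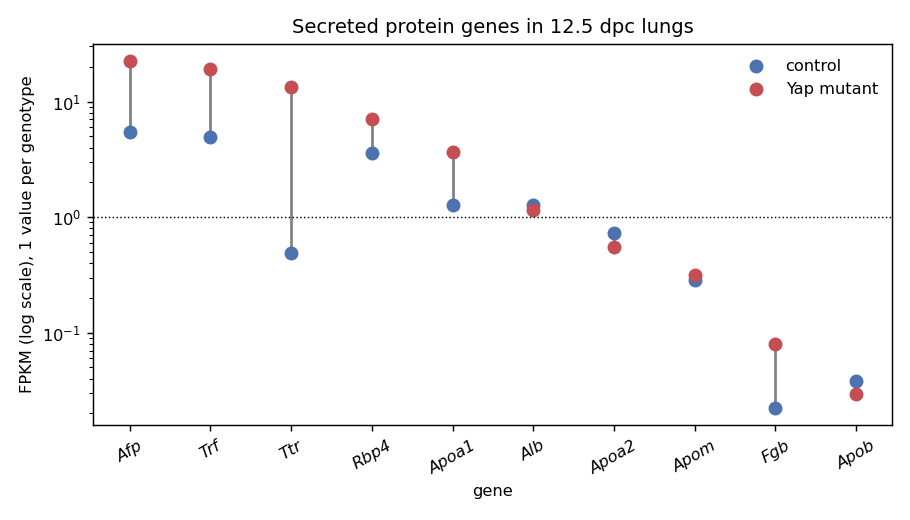
FPKM of each member (log scale) in control (blue) and Yap mutant (red) lungs, 1 value per genotype with no error available. The 5 genes on the left are higher in the mutants, with Ttr the furthest apart at 0.492 and 13.5 FPKM, and the dotted line marks 1 FPKM. Apom and Fgb, below that line, are also listed higher in the mutants.

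Of the albumin family, *Afp*, which encodes alpha-fetoprotein and lies on chromosome 5 from 90490714 to 90508907 (plus strand), was at 5.42 FPKM in the wild type and 22.3 FPKM in the mutants. This is 4.11-fold higher (log2 ratio 2.02), and 101 of the 12716 loci, itself included, had a log2 ratio at least as large. *Afp* was the most abundant member in both genotypes. *Alb*, which encodes albumin and lies upstream of it on the same strand (chromosome 5, 90460889 to 90476603), was at 1.28 FPKM in the wild type and 1.14 FPKM in the mutants, a log2 ratio of -0.15. The ends of these loci are separated by 14110 bases. The ratio of *Afp* to *Alb* was 4.23 in the wild type and 19.5 in *Yap* mutant lungs. *Afm*, the next gene of the family on that chromosome, was listed at 0 in the wild type and 0.0575 FPKM in the mutants.

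For the carriers of thyroid hormone and retinol, *Ttr* (transthyretin, chromosome 18, 20665250 to 20674326, plus strand) was at 0.492 FPKM in the wild type and 13.5 FPKM in the mutants. It had the largest difference of the members, 27.4-fold (log2 ratio 4.52), and only 18 of the 12716 loci had a log2 ratio at least as large, itself included. By level, it ranked 14038 of all loci in the wild type and 6166 in *Yap* mutant lungs. *Rbp4* (retinol-binding protein of plasma, chromosome 19, 38116620 to 38125321, minus strand) was at 3.58 FPKM in the wild type and 7.12 FPKM in the mutants. At 1.99-fold (log2 ratio 0.97) it lay just short of the 2-fold bound, and it passed the bound (log2 ratio 1.01) when the values were scaled to the same sum in both genotypes. *Ttr* was listed at 0.137 of the *Rbp4* level in the wild type and at 1.89 times that level in *Yap* mutant lungs.

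*Trf*, which encodes transferrin (chromosome 9, 103208876 to 103230286, minus strand), was at 4.92 FPKM in the wild type and 19.2 FPKM in the mutants. This is 3.90-fold higher, a log2 ratio of 1.94, close to the ratio of *Afp*, and 108 loci had a ratio at least as large. The transferrin receptor gene *Tfrc*, through which cells take up the loaded protein, was at 39.2 FPKM in the wild type and 37.3 FPKM in the mutants.

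Among the apolipoproteins, *Apoa1*, the main protein of high-density lipoprotein (chromosome 9, 46228630 to 46230466, plus strand), was at 1.27 FPKM in the wild type and 3.65 FPKM in the mutants. This is 2.87-fold higher, a log2 ratio of 1.45. *Apoa2*, which encodes another protein of the same particles (chromosome 1, 171225054 to 171226379, plus strand), was at 0.725 FPKM in the wild type and 0.551 FPKM in the mutants. *Apoa1* was thus 1.75 times the level of *Apoa2* in the wild type and 6.61 times that level in *Yap* mutant lungs. *Apob*, the structural protein of low-density lipoprotein (chromosome 12, 7977677 to 8016839, plus strand), was listed at 0.0381 and 0.0294 FPKM. *Apom*, a lipocalin that carries sphingosine-1-phosphate (chromosome 17, 35128997 to 35131752, minus strand), was listed at 0.285 and 0.318 FPKM. *Fgb*, the fibrinogen beta chain (chromosome 3, 83042305 to 83049790, minus strand), was listed at 0.0223 and 0.0791 FPKM, and at such levels a ratio rests mainly on the added 0.1 FPKM. In each of these pairs the control value comes first.

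**Figure D2:**
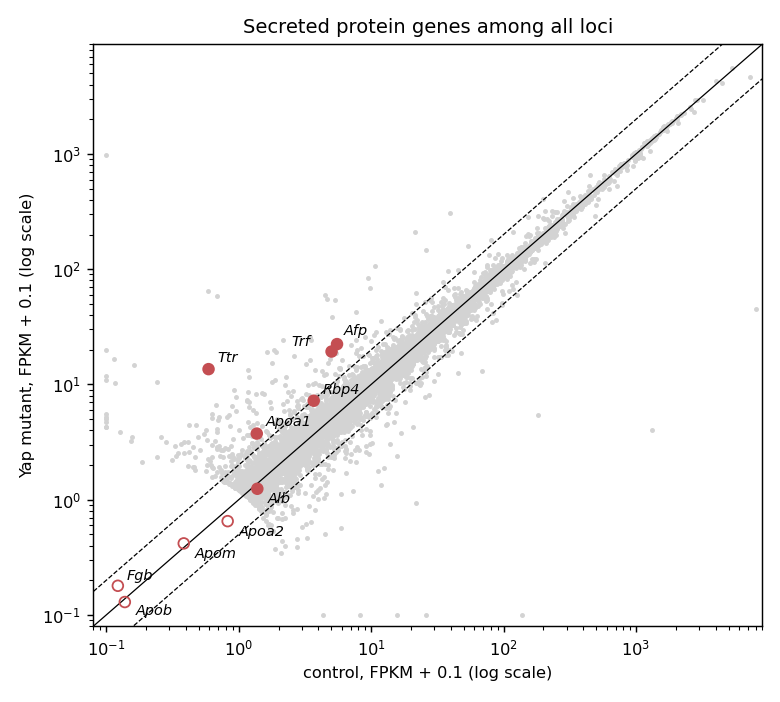
Yap mutant against control level (FPKM + 0.1, both axes log scale) for the 12716 loci averaging 1 FPKM or more (grey) and the 10 members (red, open where the mean is lower). The solid line marks equal values and the dashed lines a 2-fold difference. Ttr, Afp, Trf and Apoa1 lie above the upper dashed line and Alb lies near the line of equal values.

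Several members sit in chromosomal clusters of related genes whose levels can be set beside theirs. Beside *Apoa1* on chromosome 9, *Apoc3* was listed at 0 in both genotypes, *Apoa4* at 0.189 FPKM in the wild type and 0.0814 FPKM in the mutants, and *Apoa5* at 0 and 0.160 FPKM, over 43290 bases. *Apoa1* was thus the 1 gene of its cluster above 0.189 FPKM. The fibrinogen genes beside *Fgb* on chromosome 3 were also low, with *Fga* at 0.0189 and 0.0843 FPKM and *Fgg* at 0.176 and 0.263 FPKM. The 3 loci on each side of every member gave 54 neighbours that are not members. Of these, 35 averaged 1 FPKM or more, and 1 was higher (*Pcp4l1*, beside *Apoa2*) and 1 was lower (*Myof*, beside *Rbp4*) by at least 2-fold.

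**Figure D3:**
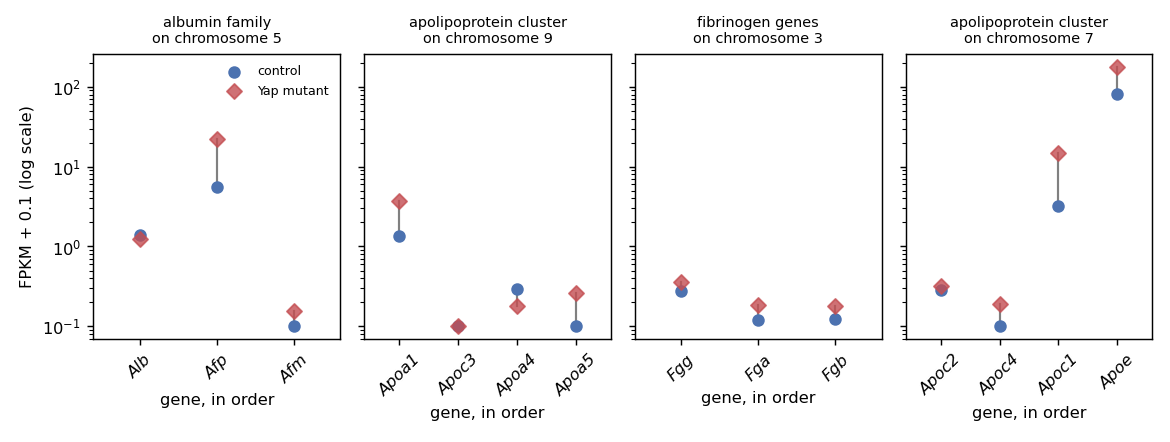
Control (circles) and Yap mutant (diamonds) levels (FPKM + 0.1, log scale) of genes in chromosomal order in 4 clusters, 1 value per genotype. Afp, Apoa1, Apoc1 and Apoe are higher in the mutants and exceed 1.28 FPKM there. Alb, Apoc3, Apoa4 and the fibrinogen genes are at or below 1.28 FPKM in both genotypes, and the fibrinogen genes are also listed higher in the mutants.

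The wider list of plasma proteins held 58 loci, and 8 of them averaged 1 FPKM or more. Of these 8, 3 were higher by at least 2-fold, 0 were lower, and the median log2 ratio was 0.12 beside -0.01 for all loci. *Apoe*, which directs lipoprotein remnants to their receptors, was at 80.0 FPKM in the wild type and 177.5 FPKM in the mutants, a log2 ratio of 1.15. *Apoc1*, its neighbour on chromosome 7, was at 3.13 and 14.9 FPKM, a log2 ratio of 2.21, while *Apoc2* and *Apoc4* of the same cluster did not exceed 0.225 FPKM. *Itih2*, which encodes a heavy chain of the inter-alpha-inhibitor that binds hyaluronan, was at 2.18 and 11.4 FPKM, a log2 ratio of 2.34. *Apoe* is also expressed by macrophages and many other cells, so it is not a marker of liver. *Pros1*, *Serping1*, *Clu*, *Ttpa* and the locus that *Lcat* shares with *Slc12a4* were the others of these 8, and their log2 ratios lay between -0.41 (*Clu*) and 0.31 (*Pros1*). The other 50 loci of the list, coagulation factors, complement and serpins among them, did not exceed 1.05 FPKM in either genotype, and their sums were 4.77 FPKM in the wild type and 6.63 FPKM in the mutants.

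The label of liver and yolk sac was checked against defining markers of both. Of 8 hepatocyte markers, *Afp*, *Ttr* and *Apoa1* were at least 2-fold higher in *Yap* mutant lungs, all members chosen on this contrast. The other members among these markers, *Alb* and *Fgb*, are those given above at 1.28 and 1.14 FPKM and at 0.0223 and 0.0791 FPKM. *Ahsg*, *Serpina1b* and *Hnf4a*, the markers that are not members, were at or below 0.139 FPKM in the wild type and 0.215 FPKM in the mutants. For *Hnf4a*, a factor that hepatocytes require, the values were 0.0328 and 0.215 FPKM. Of 29 loci of hepatocyte enzymes and transporters, 23 were under 1 FPKM in both genotypes. Of the 4 averaging 1 FPKM or more, 0 differed by at least 2-fold in either direction, including *Dlk1*, which fetal liver and mesenchyme share, at 154.0 and 281.4 FPKM. The remaining enzyme loci had means under 1 FPKM, with *Tdo2* at 1.64 and 0.324 FPKM (log2 ratio -2.03) and *Mat1a* at 0.497 and 1.03 FPKM (log2 ratio 0.92). The yolk sac markers that are not members, the endocytic receptor genes *Cubn* and *Amn* and the glucose transporter gene *Slc2a2*, did not exceed 0.537 FPKM in control or 0.282 FPKM in the mutants. Over a list of 14 loci of yolk sac endoderm, 5 averaged 1 FPKM or more and 0 of these differed by at least 2-fold. These were *Dab2*, *Sox7*, *Sox17*, *Rhox5* and *Pdzk1*, between 1.56 and 31.4 FPKM. *S100g*, which encodes a calcium-binding protein, had a lower mean, at 0.363 and 1.53 FPKM. The 6 markers fixed for these tissues that are not members thus stayed at or below 0.537 FPKM, and the group is described here by its secreted products.

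Of 25 loci of liver-enriched transcription factors, 13 averaged 1 FPKM or more, of which 2 were higher and 0 were lower by at least 2-fold, with a median log2 ratio of 0.51. *Foxa3*, a member of the FOXA family, was at 0.348 FPKM in the wild type and 2.76 FPKM in the mutants (log2 ratio 2.67). It met the mean only through its mutant value. *Cebpa*, a C/EBP factor that is also expressed in lung epithelium, was at 4.62 and 15.3 FPKM (log2 ratio 1.71). *Foxa1* and *Foxa2*, which mark the epithelium of the lung as well as that of the liver, were lower, at 23.7 and 13.5 FPKM and at 19.6 and 10.3 FPKM, and both stayed within 2-fold. *Gata4* and *Gata6* were higher within that bound, with log2 ratios of 0.88 and 0.67. *Zhx2* and *Zbtb20*, known as repressors of *Afp* in the liver after birth, were at 4.88 and 5.30 FPKM and at 0.226 and 0.349 FPKM.

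Genes that act with the members were described from a list of 19 loci for receptors, partners and lipid transfer. Of these, 14 averaged 1 FPKM or more and 0 differed by at least 2-fold. The largest difference was that of *Stra6*, the receptor through which cells take retinol from RBP4, at 11.03 FPKM in the wild type and 5.65 FPKM in the mutants (log2 ratio -0.95). *Rbp4* and *Stra6* therefore had ratios of opposite sign. *S1pr1*, a receptor for the lipid that apolipoprotein M carries, was at 7.31 and 9.26 FPKM. *Mttp*, which loads lipid onto apolipoprotein B, was at 1.85 and 2.65 FPKM although *Apob* itself was near 0.

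Markers of some other cell types also differed between the genotypes. All 12 cardiac muscle loci averaging 1 FPKM or more were higher by at least 2-fold. Of these, *Ryr2*, *Myh7*, *Nkx2-5* and *Nppa* met the mean only through their mutant values. The sum over the 16 loci of that list was 132.5 FPKM in the wild type and 970.4 FPKM in the mutants. Of 15 lung epithelial loci, *Shh*, *Sox2* and *Etv5* were at least 2-fold lower and 0 were higher by that much. By any amount, 12 were lower and 3 were higher, and nothing is read from this because the shares over all loci were not counted. The higher ones were *Sftpc* (28.4 and 55.8 FPKM), *Id2* (117.7 and 211.0 FPKM) and *Bmp4* (22.5 and 33.7 FPKM). *Shh* is itself the locus that carries Cre in the mutants. The median log2 ratio of the 15 loci was -0.60, with sums of 685.5 and 613.5 FPKM. Erythroid genes, abundant in fetal liver and in blood, summed to 5865 FPKM in the wild type and 6304 FPKM in the mutants. Macrophage loci summed to 72.9 and 78.0 FPKM, with 0 of 9 past 2-fold, and endothelial loci to 214.4 and 237.9 FPKM, with 0 of 8 past it. Of the choroid plexus list, *Otx2*, which choroid plexus requires, was listed at 0 in both genotypes, and the other 7 of 8 loci were all listed higher in the mutants. Of the 8 loci, 6 averaged under 1 FPKM. The share listed higher was not counted over all loci, so nothing is read from this count. The 2 loci of this list that averaged 1 FPKM or more stayed within 2-fold. They were *Clic6* at 9.64 and 13.2 FPKM and the locus that *Aqp1* shares with *Fam188b* at 10.6 and 14.6 FPKM. Among the lower ones, *Folr1* was at 0.136 and 0.511 FPKM and *Kl* at 0.0466 and 0.217 FPKM. Y-linked genes summed to 0.0306 FPKM in the wild type and 36.4 FPKM in the mutants, and 4 of 4 were higher by at least 2-fold. These genes are carried by males alone and were near 0 in the wild-type value, so sex and genotype cannot be told apart in any ratio given here. The part of the cardiac, epithelial and choroid plexus differences in the values of the members was not tested. *Yap1* itself was at 76.1 and 65.6 FPKM over whole lungs, and its value covers the whole locus, so it is no check of the deletion in the epithelium.

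**Figure D4:**
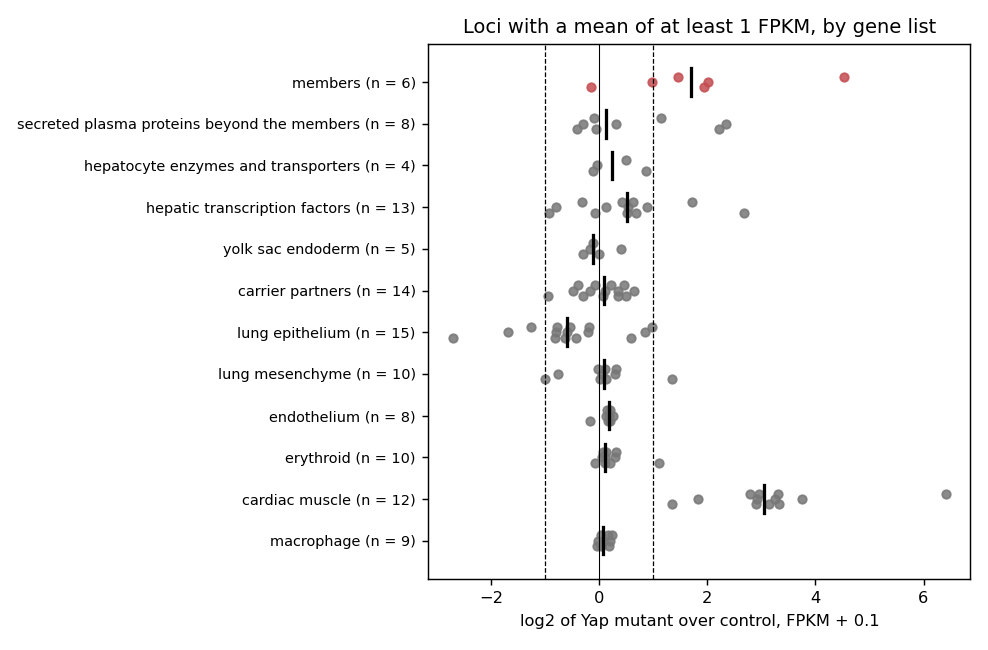
Log2 ratio of Yap mutant over control (FPKM + 0.1) for each locus averaging 1 FPKM or more, by gene list, with the median as a black bar and dashed lines at a 2-fold difference. The members chosen on these values (red) have a median of 1.70, cardiac muscle genes one of 3.05, and hepatocyte enzymes and yolk sac endoderm hold no locus past 2-fold.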

How the data were processed

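RNA from whole lungs at 12.5 *dpc* was sequenced as 3 control and 3 *Yap* mutant libraries, grouped by the genotype in the labels. The submitters' processing notes name TopHat, Cuffdiff and mm10, with no versions, and the paper names the Maverix platform. The authors' deposited FPKM values are 1 per genotype and locus, pooled over its libraries by the authors, and the unit was read from the Cuffdiff layout because the tables do not name it. Their log2 fold changes and p-values hold the authors' own comparison and were not used. Columns of other samples numbered 0.

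Values per library and depth were not analysed here, so sizes are described without a test. Libraries of a later stage and the ChIP-Seq were not used here. The log2 ratio used a pseudocount of 0.1 FPKM, which understates the change of low genes. The 2-fold bound and a mean of at least 1 FPKM were applied to all 24402 loci. The count was tested on simulated data with known changes. Locus starts, which count from 0 in the table, are given with 1 added. Strand came from GENCODE and promoters from RefSeq, both GRCm38, as mm10 is. The bases after each promoter's start were checked against GENCODE transcripts for 8 of 8 members.

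The members and gene lists were chosen with earlier results of these data known. The rule for named loci took all members, in each list at most 5 loci past the bound per direction and the 3 with the highest mean, the carrier partners and *Yap1*. Lists of other cell types are given mainly as counts and sums. Some loci that the rule takes are not reported here. *Apoe*'s cluster, the chromosomal neighbours, and other loci named within a list for their known role were chosen after their values were seen. Of the list symbols, *C5*, *Hbb-bt*, *Hbb-bs*, *Ahsp* and *Adgre1* had no locus under that name. The lists for mesenchyme, mesothelium, nerve and gut gave medians of 0.08, 0.31, -0.64 and -0.15, over 10, 5, 8 and 2 loci past the filter, the last of 11. Alternatives were another pseudocount, filter, scaling, bound or table. Python 3.11.15, numpy 2.4.6, pandas 2.3.3 and matplotlib 3.10.9 were used.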

Additional observations from a re-analysis of the deposited data

How the results depend on the processing

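Between 3 and 5 members were at least 2-fold higher in *Yap* mutant lungs under the alternatives tried, and 0 were lower under each of them. The count was 3 averaging 5 FPKM or more, which leaves out *Apoa1*, and 5 with a 1.5-fold bound or with values scaled to the same FPKM sum, which both add *Rbp4*. With no filter on low values, the median log2 ratio of the members was 0.76 instead of 1.70, because it then includes the 4 members under 1 FPKM. The log2 ratio of *Ttr* was 3.28 with a pseudocount of 1 FPKM instead of 4.52, and that of *Fgb* was 1.46 with a pseudocount of 0.01 FPKM instead of 0.55. The other 47 of 50 member ratios under alternatives kept their sign and their side of the 2-fold bound or moved by less than 1.5-fold, and *Rbp4* crossed the bound as given above. No member changed sign.

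Over all loci, the counts of higher and lower loci were 700 and 392 with no filter, 96 and 61 averaging 5 FPKM or more, and 565 and 420 with a 1.5-fold bound, against 274 and 163. With a pseudocount of 1 FPKM, 96 loci were lower. The count over loci with a gene symbol, chosen after seeing the data, was 260 higher and 152 lower. No paired analysis was possible because the tables hold 1 value per genotype, and for the same reason no library could be left out. Without values per library, neither sampling error nor spread can be set beside the low members, *Alb* included.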

Other observations

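Other genes of secretory endoderm that the text above does not describe, chosen after their values were seen, were also higher in *Yap* mutant lungs. *Reg4*, a secreted lectin of the gut, was at 0.0610 FPKM in the wild type and 14.6 FPKM in the mutants. *Agr2*, which helps secretory cells to fold mucins, was at 0.0263 and 3.76 FPKM. The gut peptide genes *Pyy* and *Guca2a* were listed at 0 in the wild type and at 4.90 and 4.18 FPKM in the mutants. *Reg4*, *Agr2*, *Pyy* and *Guca2a* met the mean of 1 FPKM only through their mutant values. For the regional factors *Pdx1* and *Cdx2*, the values were 0.0266 and 0.809 FPKM, and 0 and 0.410 FPKM, both with means under 1 FPKM. They belong to the list of 11 gut and pancreas loci, of which 2 averaged 1 FPKM or more. Neither of those 2 differed by at least 2-fold, *Barx1* at 2.31 and 1.83 FPKM and *Nkx6-1* at 2.88 and 2.94 FPKM. The others of the list did not exceed 0.459 FPKM, and *Alpi*, *Neurog3* and *Ptf1a* were listed at 0 in both genotypes. The source of the transcripts that were higher was not tested.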
